A study of Homo sapiens with 4 samples.

Results

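The genes encoding the constitutive proteasome were examined in OVCAR3 cells after exposure to etoposide. Members were taken by symbol, as genes whose names hold PSMA, PSMB, PSMC, PSMD or PSME and a number, without the immunoproteasome genes PSMB8, PSMB9 and PSMB10. This gave 40 of the 60605 genes in the data, of which 38 passed the filter on low values among 22185 genes tested. The 2 that did not pass were PSMA8, an alpha subunit of the testis, which had an FPKM of 0.00827 in DMSO replicate 1 and was listed at 0 in the other libraries, and PSMB11, a beta subunit of the thymus, whose FPKM lay between 0.00791 and 0.0210. FPKM, which divides the fragments of a transcript by its length and by the fragments mapped in that library, was summed over the transcripts of each gene, so that levels of genes are compared per length.

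OVCAR3 is a line of ovarian adenocarcinoma cells. RNA was sequenced from 2 libraries of cells given etoposide at 1.7 µM for 24 h and from 2 libraries of cells given the vehicle DMSO, and the labels call each pair biological replicates. Etoposide is a topoisomerase inhibitor that leaves breaks in DNA. Cells of both groups had first been held for 16 h in 100 ng/mL nocodazole, which blocks the mitotic spindle, and then released into fresh medium for 3 h, so that the DMSO cells were vehicle controls of released cultures and no untreated culture was measured. The deposited FPKM and coverage imply between about 47700000 and 66500000 mapped read pairs per library. Genes used to identify these cells had mean FPKM of 235 (PAX8), 979 (KRT8) and 757 (KRT18), while 4 of 6 fibroblast, 5 of 6 leukocyte and 3 of 4 endothelial markers stayed below 1 in each library. In bulk RNA, fewer cells of a type and less RNA per cell cannot be told apart.

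The proteasome degrades proteins that carry ubiquitin chains. Its core particle is a barrel in which rings of beta subunits, some with peptidase sites, lie between rings of alpha subunits that gate the entry. A regulatory particle caps the barrel, with a base of ATPases that unfold the substrate and a lid that removes ubiquitin, and separate activators can bind the same face of the barrel. The transcription factor NFE2L1 is known to raise the genes of its subunits together when proteasome activity is short.

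No proteasome gene changed past the test. Of the 38 genes tested, 0 were called between etoposide and DMSO by limma at a Benjamini-Hochberg adjusted p under 0.05, where 0% of all 22185 genes were called. Their adjusted p-values ran from 0.422 to 0.998, and the smallest of any gene was 0.169. At an unadjusted p under 0.05 the count was also 0 of 38, against 11.9% of all genes. With voom weights on estimated fragments, limma called 0 of 38 as well, and 1 gene in all. With DMSO replicate 2 left out, limma called 4 of 38 (10.5%), namely PSMA2, PSMD8, PSMD9 and PSME4, where it called 8.72% of all genes, and leaving out any other library called 0 of 38. None reached a 1.5-fold difference on all 4 libraries, which 6.83% of all genes did. The 95% confidence interval of the fold change lay within 1.5-fold in both directions for 36 of 38 (94.7%), the exceptions being PSMA2 and PSMD9. Of all genes, 48.8% had such an interval. These shares were not matched for level. The median SE was 0.078 for members and 0.16 for all genes, at median levels of 52.0 and 2.29 FPKM. The log2 fold changes (etoposide minus DMSO, on log2(FPKM + 0.1)) ran from −0.34 for PSMD9 to 0.17 for PSMD5, with a median of −0.020, against 0.036 over all genes tested. The estimate was above 0 for 16 of 38 (42.1%), against 56.2% of all genes. This split followed the scaling, with 26 of 38 above 0 on the TPM scale and 9 of 38 after median ratio scaling. The median over all genes moved as well, to 0.10 with TPM and 0.0027 with median ratio scaling. That of the members was 0.047 and −0.057, below the median of all genes in each setting. Exact two-sided permutation over 2 libraries against 2 reaches no p under 0.333, so the test rests on the spread that limma shares among genes.

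**Figure D1:**
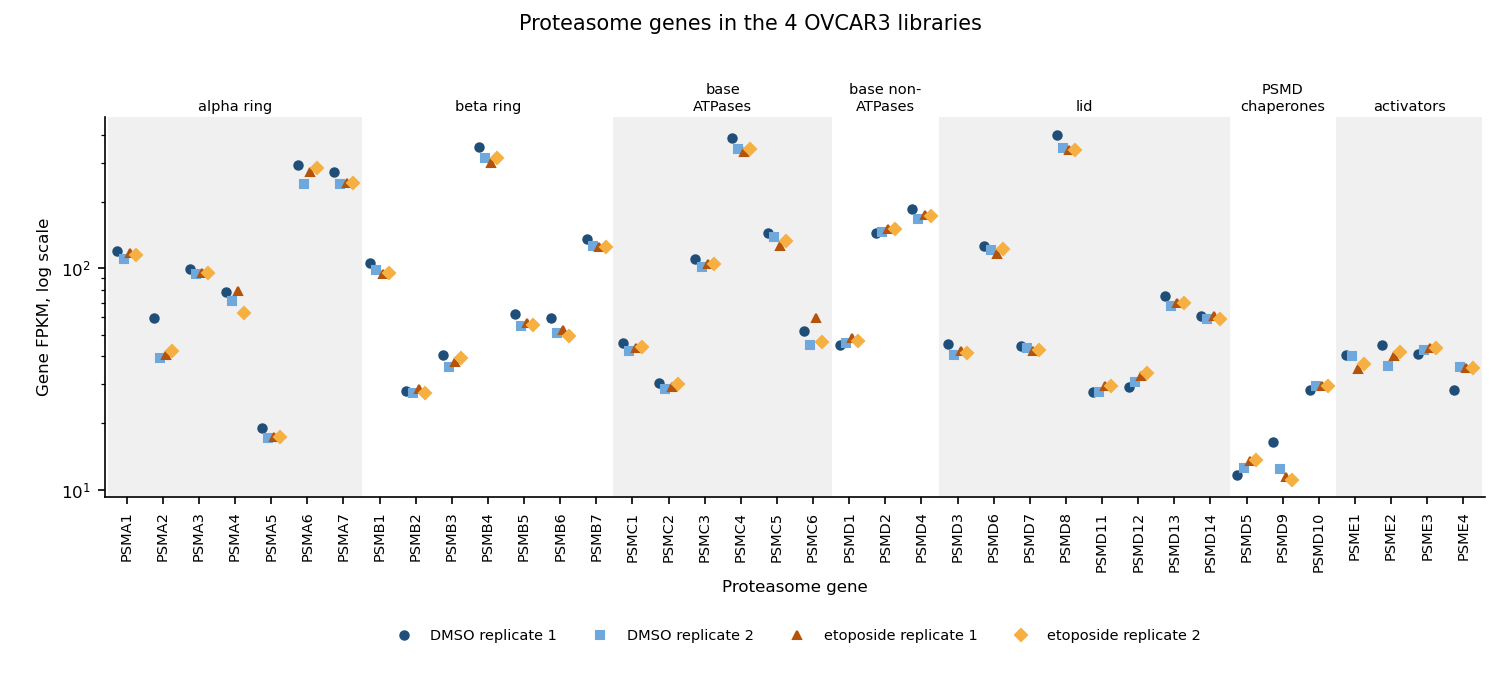
FPKM of the 38 proteasome genes tested (log axis) in each of the 4 libraries, with genes grouped by their place in the complex and 1 point per library. The points of a gene mostly lie on top of one another, from 12.8 for PSMD5 to 359 for PSMD8 as means over the libraries, and the point that stands apart is most often DMSO replicate 1.

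The genes differed far more from one another than between treatments. PSMD8 had the highest mean level (359 FPKM), followed by PSMC4 (354), PSMB4 (320), PSMA6 (273) and PSMA7 (250), and PSMA5 (17.7), PSMD9 (12.8) and PSMD5 (12.8) had the lowest. PSMD8 and PSMC4, neighbours in that order, did not differ beyond their spread, as PSMD8 ran from 341 to 402 and PSMC4 from 336 to 389 FPKM. PSMD5 (11.6 to 13.7) and PSMD9 (11.1 to 16.4) overlapped in the same way. Among subunits that enter the core particle in equal number, the alpha ring genes spanned 15.4-fold and the beta ring genes 11.5-fold. The median member was at 52.0 FPKM, against 2.29 for all genes tested. All members together summed to 3896 and 3529 FPKM in DMSO replicates 1 and 2 and to 3579 and 3592 FPKM in etoposide replicates 1 and 2. Both etoposide sums lay between those of DMSO. In TPM, which adds to the same total in each library, the members made up 0.858% and 0.817% with DMSO and 0.841% and 0.856% with etoposide.

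The 38 genes lie on 15 chromosomes, with 7 each on chromosomes 14 and 17. Only PSMB4 and PSMD4 on chromosome 1 (132 kb apart) and PSME1 and PSME2 on chromosome 14 (4395 bases apart) lie close to each other. RefSeq windows of 250 bases upstream of the start site (GRCh38.p14) were found for 33 of the 38, and a gene with several windows was counted once. PSMA7, PSMB1, PSMB6, PSMB7 and PSMD4 were without one. The letters TGACNNNGC, a core of the element bound by NFE2L1 and its relative NRF2, occurred on either strand upstream of 10 of 33 members (30.3%) and of 13.2% of 27305 genes with a window. These 10 were PSMA4, PSMB3, PSMC5, PSMD3, PSMD5, PSMD9, PSMD12, PSME1, PSME2 and PSME4. The letters CCAAT, read by NF-Y, occurred in 48.5% of members and 37.0% of all genes, and the GC box GGGCGG in 66.7% and 46.2%. CCGGAAG, an ETS core, was found in 24.2% and 10.2%, and TATAAA in 12.1% and 13.0%. All were searched on both strands, and a match is a description of the letters, not a site. Printed here, because they stand before the 2 members with the highest fold changes (PSMD5 and PSMD12) and before 2 of the 3 with the lowest (PSMD9 and PSME1), are 4 of the upstream windows, with the matches to TGACNNNGC in capitals and without the bases that GENCODE places in an exon of the same gene. They run from 5′ to 3′ on the strand of the gene, which is the minus strand of chr9:120842952-120843172 for PSMD5 and chr17:67366606-67366827 for PSMD12, and the plus strand of chr12:121888540-121888731 for PSMD9 and chr14:24135944-24136162 for PSME1.
PSMD5: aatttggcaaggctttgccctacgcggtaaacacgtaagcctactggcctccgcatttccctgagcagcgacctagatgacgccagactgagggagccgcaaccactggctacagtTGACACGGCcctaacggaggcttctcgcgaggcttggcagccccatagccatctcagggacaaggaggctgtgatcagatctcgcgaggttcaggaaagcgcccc
PSMD12: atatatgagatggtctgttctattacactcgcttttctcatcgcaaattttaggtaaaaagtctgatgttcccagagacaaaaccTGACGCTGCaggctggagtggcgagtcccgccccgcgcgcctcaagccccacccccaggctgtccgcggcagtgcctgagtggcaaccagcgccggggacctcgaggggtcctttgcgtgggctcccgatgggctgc
PSMD9: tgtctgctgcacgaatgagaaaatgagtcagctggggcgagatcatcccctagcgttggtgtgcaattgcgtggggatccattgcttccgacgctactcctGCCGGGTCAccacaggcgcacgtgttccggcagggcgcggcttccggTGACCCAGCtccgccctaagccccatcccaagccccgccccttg
PSME1: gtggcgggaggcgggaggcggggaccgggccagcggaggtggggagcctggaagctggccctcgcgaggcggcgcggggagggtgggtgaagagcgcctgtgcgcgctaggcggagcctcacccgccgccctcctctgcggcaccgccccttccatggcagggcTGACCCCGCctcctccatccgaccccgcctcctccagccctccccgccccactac
The match begins 134 bases before the RefSeq start site in PSMD5, 165 in PSMD12 and 86 in PSME1, and PSMD9 has 2 matches, at 149 and 102 bases. They were picked for their place in the range and for the match. The other 6 genes with a match had log2 fold changes from −0.13 (PSMC5) to 0.15 (PSME4), and PSMA2, the second lowest of all members, had a window and no match.

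The alpha ring genes PSMA1 to PSMA7 form the outer rings of the core particle. Of these 7, 2 had estimates above 0 and 5 below, with a median log2 fold change of −0.065, and 0 were called. Their summed level was 943 and 813 FPKM with DMSO and 866 and 859 FPKM with etoposide. PSMA2 (ENSG00000106588, GRCh38 chr7:42916828-42932185, minus strand) was at 59.7 and 39.5 FPKM in DMSO replicates 1 and 2 and at 40.5 and 42.1 FPKM in etoposide replicates 1 and 2. DMSO replicate 1 stood alone, while the other 3 libraries were nearly level, and the log2 fold change of −0.23 (SE 0.19) had an adjusted p of 0.611. On the voom scale of estimated fragments the same estimate was −0.019, and without DMSO replicate 1 it was 0.064. Leaving out DMSO replicate 2 instead gave −0.53. PSMA7 (ENSG00000101182, chr20:62136733-62143440, minus strand) was at 272 and 241 FPKM with DMSO and at 244 and 244 FPKM with etoposide. Both etoposide libraries lay between the DMSO libraries, with means of 257 ± 22.2 and 244 ± 0.369 FPKM (SD, n = 2), a log2 fold change of −0.072 (SE 0.083) and an adjusted p of 0.729. The other alpha genes had mean levels between 17.7 (PSMA5) and 273 FPKM (PSMA6) and log2 fold changes from −0.084 (PSMA4) to 0.064 (PSMA6). In none of the 7 did the 2 groups separate.

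The beta ring holds the peptidase sites. PSMB5 (chr14:23016543-23035230, minus strand) carries the chymotrypsin-like site that proteasome inhibitors bind most strongly, and its level was 62.1 and 55.0 FPKM with DMSO and 56.8 and 55.5 FPKM with etoposide. Both etoposide values lay within the DMSO pair, with a log2 fold change of −0.058 (SE 0.085, adjusted p = 0.793). PSMB6 (chr17:4796144-4798502, plus strand), with the caspase-like site, was at 59.9 and 51.0 FPKM with DMSO and at 52.9 and 49.3 FPKM with etoposide, and the groups overlapped (−0.12, SE 0.10, adjusted p = 0.640). PSMB7 (chr9:124353465-124415444, minus strand), with the trypsin-like site, was at 136 and 126 FPKM with DMSO and at 125 and 125 FPKM with etoposide. Both etoposide libraries of PSMB7 lay below both of DMSO, by less than the gap between the DMSO libraries (−0.068, SE 0.074, adjusted p = 0.714). PSMB7 was thus the most abundant message of the 3 catalytic subunits in each library, at 125 to 136 FPKM against 49.3 to 62.1 FPKM for the others.

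Among the structural beta subunits, PSMB4 (ENSG00000159377, chr1:151399560-151401937, plus strand) was at 352 and 316 FPKM with DMSO and at 298 and 315 FPKM with etoposide. The etoposide libraries were the lower ones, the nearest pair differing by little, and the log2 fold change was −0.12 (SE 0.083, adjusted p = 0.547). PSMB1 (ENSG00000008018, chr6:170535120-170553307, minus strand) was at 105 and 98.2 FPKM with DMSO and at 94.4 and 94.8 FPKM with etoposide. The groups did not overlap, and the estimate of −0.10 (SE 0.073) had an adjusted p of 0.558. PSMB2 and PSMB3, the other structural members, had log2 fold changes of 0.024 and 0.0096. Over the 7 beta genes, 2 estimates were above 0 and 5 below, with a median of −0.068 and 0 called. Their sum was 784 and 709 FPKM with DMSO and 693 and 706 FPKM with etoposide.

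The base of the regulatory particle is a ring of ATPases, PSMC1 to PSMC6. Of these 6, 2 estimates were above 0 and 4 below, with a median of −0.0044, and 0 were called. PSMC5 (ENSG00000087191, chr17:63827152-63832026, plus strand) was at 144 and 139 FPKM with DMSO and at 127 and 132 FPKM with etoposide. Both etoposide libraries were below both DMSO libraries, at means of 129 ± 3.99 and 141 ± 4.11 FPKM (SD, n = 2), a log2 fold change of −0.13 (SE 0.071, adjusted p = 0.485). PSMC5 overlaps FTSJ3 on the other strand over 233 bases, and the counting was not set to use strand. PSMC4 (ENSG00000013275, chr19:39971165-39981764, plus strand) was at 389 and 346 FPKM with DMSO and at 336 and 347 FPKM with etoposide. DMSO replicate 1 was again the highest and the groups overlapped (−0.10, SE 0.083, adjusted p = 0.605). The estimates of PSMC1, PSMC2 and PSMC3 lay between −0.0064 and 0.00046, and that of PSMC6 was 0.12.

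The base also holds scaffold proteins without ATPase activity. PSMD1 (ENSG00000173692, chr2:231056845-231173116, plus strand), the scaffold that binds ubiquitin receptors, was at 45.2 and 46.2 FPKM with DMSO and at 48.6 and 47.0 FPKM with etoposide. PSMD2 (ENSG00000175166, chr3:184299198-184309050, plus strand), the other large scaffold, was at 145 and 146 FPKM with DMSO and at 151 and 151 FPKM with etoposide. In both genes the etoposide libraries were above the DMSO libraries, by small amounts, with log2 fold changes of 0.064 (SE 0.071, adjusted p = 0.714) and 0.058 (SE 0.066, adjusted p = 0.724). For PSMD2, the 95% interval of the log2 fold change ran from −0.10 to 0.22. PSMD4, a ubiquitin receptor of the base, had an estimate of −0.019.

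The lid has 8 members here, of which 3 had estimates above 0 and 5 below (median −0.032, 0 called). PSMD12 (ENSG00000197170, chr17:67337916-67366605, minus strand), a structural lid subunit, was at 29.0 and 30.6 FPKM with DMSO and at 32.6 and 33.7 FPKM with etoposide. The groups did not overlap, the means being 29.8 ± 1.12 and 33.2 ± 0.793 FPKM (SD, n = 2), and the log2 fold change of 0.15 (SE 0.076) had an adjusted p of 0.455. PSMD11, another structural lid subunit, had the tightest groups, at 27.7 FPKM in both DMSO libraries and 29.3 FPKM in both etoposide libraries (log2 fold change 0.083, adjusted p = 0.638). After a correction for transcript length and GC content, the estimates of PSMD12 and PSMD11 both fell below 0. PSMD8 (ENSG00000099341, chr19:38374550-38383824, plus strand) had the highest mean level of the set. It was at 402 and 348 FPKM with DMSO and at 344 and 341 FPKM with etoposide. Only DMSO replicate 1 stood apart (−0.13, SE 0.089, adjusted p = 0.561), and without DMSO replicate 2 the estimate was −0.23. PSMD14, the deubiquitinase of the lid, was level at 0.0059, and its partner PSMD7 was at −0.054. PSMD3, PSMD6 and PSMD13 had estimates from −0.052 to −0.028.

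PSMD5, PSMD9 and PSMD10 are chaperones that help to assemble the base and are absent from the finished complex. They held the highest and the lowest fold change of the set. PSMD5 (ENSG00000095261, chr9:120815496-120842951, minus strand) was at 11.6 and 12.5 FPKM with DMSO and at 13.5 and 13.7 FPKM with etoposide. Both etoposide libraries were the higher ones, with a log2 fold change of 0.17 (SE 0.087) and a 95% interval from −0.043 to 0.39 (adjusted p = 0.462). PSMD9 (ENSG00000110801, chr12:121888732-121918297, plus strand) was at 16.4 and 12.4 FPKM with DMSO and at 11.4 and 11.1 FPKM with etoposide. DMSO replicate 1 was far above the other 3 libraries, which lay close together, and the log2 fold change of −0.34 (SE 0.14) had an adjusted p of 0.422. Without DMSO replicate 1 the estimate was −0.14, and without DMSO replicate 2 it was −0.54. PSMD10 was level, at 0.026.

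The activators dock on the core particle in place of the regulatory particle. PSME1 (ENSG00000092010, chr14:24136163-24138967, plus strand), which forms a ring with PSME2, was at 40.7 and 40.3 FPKM with DMSO and at 35.0 and 36.9 FPKM with etoposide. The groups did not overlap and the DMSO libraries were level, with means of 40.5 ± 0.262 and 36.0 ± 1.41 FPKM (SD, n = 2), a log2 fold change of −0.17 (SE 0.074) and an adjusted p of 0.427. Its neighbour and partner PSME2 had an estimate of 0.022 with a 95% interval from −0.26 to 0.31, and the difference between the 2 was not tested. With the highest transcript alone both signs turned, to 0.080 for PSME1 and −0.039 for PSME2. PSME4 (ENSG00000068878, chr2:53864069-53970993, minus strand), a large activator of the nucleus, was at 28.2 and 36.0 FPKM with DMSO and at 35.4 and 35.5 FPKM with etoposide. Here DMSO replicate 1 was the lowest library, and the other 3 were nearly level (0.15, SE 0.12, adjusted p = 0.613). Without DMSO replicate 2 the estimate was 0.33. PSME3, the other nuclear activator, had an estimate of 0.063.

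**Figure D2:**
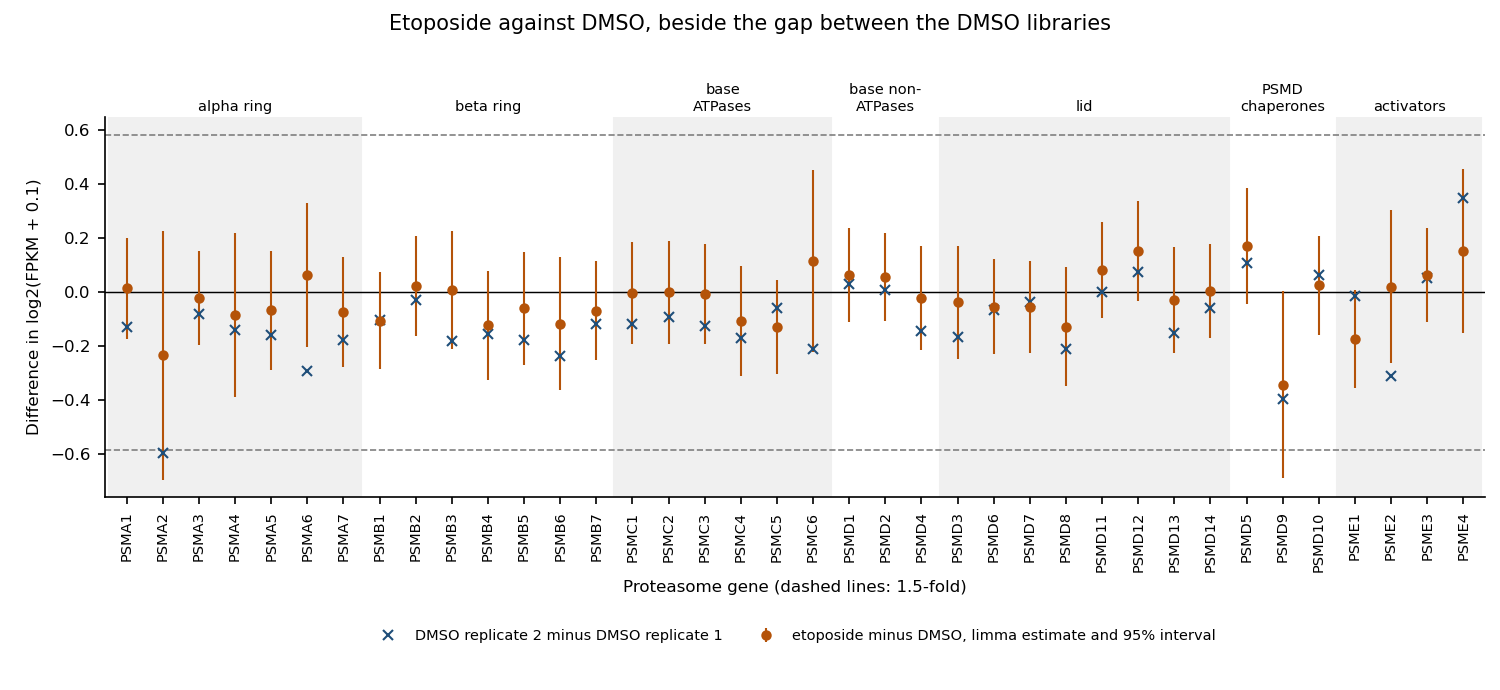
Difference in log2(FPKM + 0.1) for each proteasome gene: circles with bars give etoposide minus DMSO from limma with its 95% interval, crosses give DMSO replicate 2 minus DMSO replicate 1, and dashed lines mark 1.5-fold. All 38 intervals cross 0, and in 28 genes (73.7%, against 57.0% of all genes tested) the cross, a gap between single libraries, lies farther from 0 than the circle, a difference of means of 2.

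Taking the libraries one by one, both etoposide libraries lay above both DMSO libraries in 6 members (15.8%), against 28.9% of all genes tested. These were PSMD1, PSMD2, PSMD11, PSMD12, PSMD5 and PSME3. Both lay below in 8 members (21.1%), against 19.0% of all genes, namely PSMB1, PSMB4, PSMB7, PSMC5, PSMD7, PSMD8, PSMD9 and PSME1. The lists depend on the scale. In estimated fragments (FPKM times kilobases), PSMC2 was at 86.4 and 85.5 with DMSO and at 89.2 and 90.1 with etoposide. PSMC6 also separated upward in fragments, PSMC1 and PSMD6 separated downward, and the groups of PSMD1 overlapped. The share of all genes was not counted on this scale. Medians of the layers followed the scaling. Those of the ATPases and the lid were 0.063 and 0.035 on the TPM scale and that of the chaperones −0.010 after median ratio scaling. The median of all genes was 0.10 on the TPM scale and 0.0027 after median ratio scaling. No test of a difference between the layers was made.

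The larger difference among these libraries lay between the DMSO replicates. DMSO replicate 1 was the highest of the 4 libraries in 27 members (71.1%), against 29.5% of all genes, and the lowest in 8 members (21.1%), against 35.6%. The 8 were PSMD1, PSMD2, PSMD11, PSMD12, PSMD5, PSMD10, PSME3 and PSME4. The median absolute difference between the DMSO libraries was 0.13 on the log2 scale, that between the etoposide libraries 0.034, and the median absolute estimate for the treatment 0.064. Over all genes tested the same medians were larger, at 0.20, 0.11 and 0.17, and in the same order of size. DMSO replicate 2 lay below replicate 1 in 30 of 38 members (78.9%), against 49.3% of all genes.

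This gap moved with transcript length. Over the 38 members, the Spearman correlation of the difference DMSO replicate 2 minus DMSO replicate 1 with transcript length was 0.47, and over all 22185 genes it was 0.32. For the treatment estimate it was 0.44 over members and 0.19 over all genes. For etoposide against DMSO replicate 1 alone it was 0.54 and 0.29, against DMSO replicate 2 alone 0.18 and 0.011, and between the etoposide replicates −0.11 and 0.017. Correlations with GC content over members were −0.32, −0.44, −0.50, −0.27 and 0.044 in the same order. Over all genes they were −0.34, −0.29, −0.36, −0.11 and −0.015. They run across genes that share 4 libraries, and genes are not independent replicates. Of the 19 shorter members, with lengths from 752 to 1537 bases, 1 was higher in DMSO replicate 2 than in replicate 1, against 7 of the 19 longer members, from 1564 to 7092 bases. The longest members were PSME4, PSMB2, PSMD12, PSMD11 and PSMA5, and DMSO replicate 1 was the lowest library for PSME4, PSMD12 and PSMD11 and not for PSMB2 and PSMA5. Median treatment estimates were −0.052 and 0.0059 for the shorter and the longer members. The part of transcript length or RNA quality in these differences was not tested.

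**Figure D3:**
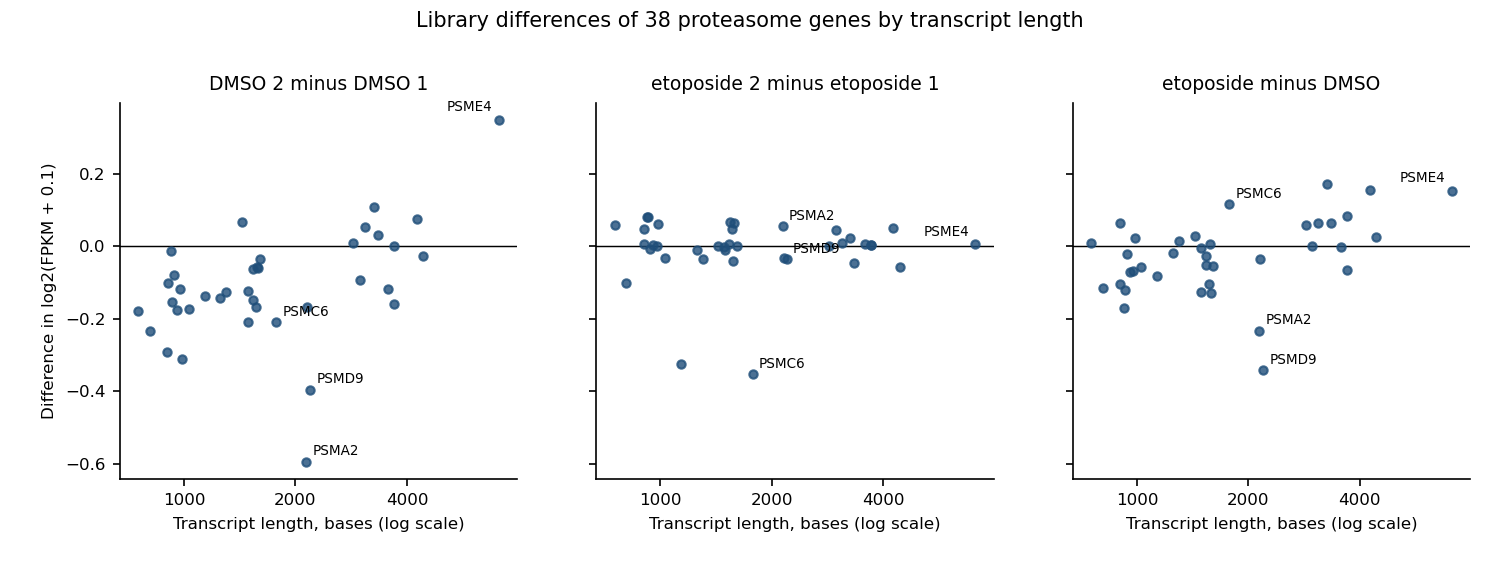
Difference in log2(FPKM + 0.1) of the 38 proteasome genes against transcript length in bases (log axis), for the 2 DMSO libraries, the 2 etoposide libraries, and etoposide minus DMSO. Between the DMSO libraries the short genes lie mostly below 0 and PSME4, the longest, at 0.35, while the etoposide replicates stay near 0 apart from PSMC6 and PSMA4.

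The assignment of reads to transcripts also differed between libraries. StringTie divides the reads of a gene among its annotated transcripts, and FPKM divides by their length, so a gene sum can move when reads pass from a short to a long transcript. In 28 of 38 members the same transcript led in each library, and in 10 it did not. In PSMA2, the coding transcript ENST00000223321 was at 43.8 FPKM in DMSO replicate 1 and at 10.8, 7.35 and 11.4 FPKM in DMSO replicate 2 and etoposide replicates 1 and 2. The retained-intron transcript ENST00000678407 was at 0.288 FPKM in DMSO replicate 1 and at 16.4, 3.72 and 15.8 FPKM in the others. Fragments of PSMA2, estimated as FPKM times kilobases of each transcript, ran only from 93.9 to 102, a far smaller gap than that of its FPKM. In PSMD9, ENST00000543699, a transcript annotated as a target of nonsense-mediated decay, was at 5.13 FPKM in DMSO replicate 1 and listed at 0 in the other 3. PSMA2 and PSMD9 were the only 2 members whose log2 fold change moved by more than 0.1 between FPKM and these fragments.

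The following pair was chosen after its values were seen. In PSMC6, ENST00000612399 was at 33.3 and 9.20 FPKM with DMSO and at 42.4 and 7.02 FPKM with etoposide, while ENST00000445930 was at 12.0 and 30.3 FPKM and at 9.45 and 33.1 FPKM. In PSMA4, ENST00000559082 was at 36.4 and 9.59 FPKM with DMSO and at 33.3 and 0 FPKM with etoposide. Other members differed between libraries in another way, as in PSMD1, where ENST00000676818 was at 23.2 and 7.56 FPKM with DMSO and at 0.208 and 19.7 FPKM with etoposide. In PSMC5, transcripts annotated as retained intron took 80.2% and 68.9% of the gene's FPKM with DMSO and 80.0% and 54.1% with etoposide, and in PSMC4 between 59.6% and 63.0%. In PSMD13, transcripts annotated for nonsense-mediated decay took between 67.5% and 79.2%. In PSMD8, the leading transcript ENST00000620216, without an annotated type, took 50.0% and 81.1% with DMSO and 76.2% and 85.2% with etoposide. The accuracy of such a division was not tested, and the gene sums above include these transcripts.

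**Figure D4:**
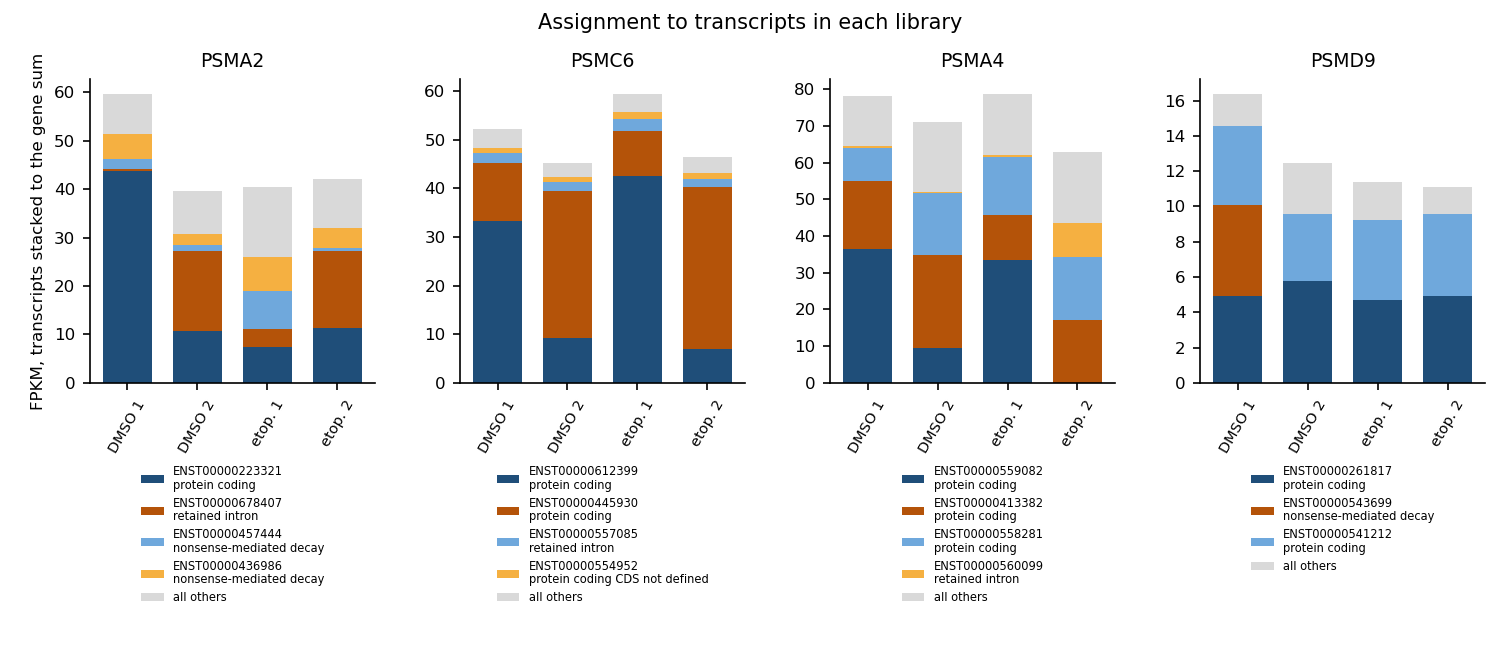
FPKM of the transcripts of PSMA2, PSMC6, PSMA4 and PSMD9, stacked to the gene sum for each library, with the 4 highest transcripts above 1 FPKM on average (3 for PSMD9) in colour and all others in grey. The main transcript of PSMA2 fills most of the bar in DMSO replicate 1 only, and that of PSMC6 changes between replicates within each treatment.

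Reads can also be shared with other genes. Of the members, 7 overlap an expressed gene on the other strand: PSMA3 (PSMA3-AS1), PSMC1 (NRDE2), PSMC2 (DNAJC2), PSMC5 (FTSJ3), PSMD6 (PSMD6-AS2), PSMD14 (MXRA7P1) and PSME1 (EMC9, over 3 bases). No strand option was recorded for the counting, and how reads in these overlaps were divided was not tested. The files name 35 pseudogenes after members. They summed to 27.9 FPKM, against 3649 FPKM for the members tested, and 4 of them reached 1 FPKM.

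Genes that work with the proteasome were described from lists. In the main test on all 4 libraries, no gene of any of these lists was called by limma at an adjusted p under 0.05. NFE2L1 (chr17:48048329-48061545, plus strand), the transcription factor of proteasome genes, was at 35.3 and 36.7 FPKM with DMSO and at 36.2 and 35.5 FPKM with etoposide. These levels overlapped fully (log2 fold change −0.0037, SE 0.073, adjusted p = 0.987). DDI2, the protease that cleaves NFE2L1, was at 14.1 and 19.9 FPKM with DMSO and at 20.7 and 20.8 FPKM with etoposide, so that only DMSO replicate 1 stood apart (0.31, SE 0.16, adjusted p = 0.468). Of the 7 genes of this axis, 4 estimates were above 0 and 3 below, with a median of 0.031.

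ADRM1, a ubiquitin receptor of the base, was at 161 and 139 FPKM with DMSO and at 134 and 133 FPKM with etoposide (−0.16, SE 0.091, adjusted p = 0.489). With the lid subunit SEM1 and the inhibitor PSMF1, 1 of 3 estimates was above 0. Of 6 assembly factors of the core and the regulatory particle, 4 were above 0, the smallest p belonging to PSMG1, a chaperone of the alpha ring, at 34.5 and 32.4 FPKM with DMSO and 34.9 and 37.1 FPKM with etoposide (0.11, SE 0.079, adjusted p = 0.579). Without DMSO replicate 2, the estimates of ADRM1 and DDI2 were −0.27 and 0.56.

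Among 10 genes of ubiquitin, shuttle factors and deubiquitinases, 6 estimates were above 0 and 4 below (median 0.042). UBQLN1, a shuttle factor that carries ubiquitinated proteins to the proteasome, was at 20.5 and 23.0 FPKM with DMSO and at 24.6 and 24.7 FPKM with etoposide. Both etoposide libraries were the higher ones, at a log2 fold change of 0.18 (SE 0.088) and an adjusted p of 0.454. Among 7 proteasome-associated proteins, 4 were above 0, and ZFAND5, a zinc finger protein that binds the proteasome, was at 25.6 and 30.7 FPKM with DMSO and at 36.2 and 35.4 FPKM with etoposide. Its estimate of 0.35 (SE 0.11) had an unadjusted p of 0.0160 and an adjusted p of 0.354. Without DMSO replicate 2, the estimate of ZFAND5 was 0.48.

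The immunoproteasome subunits replace the catalytic beta subunits under interferon. PSMB8 and PSMB9 stayed below 1 FPKM in each library, at means of 0.281 and 0.104. PSMB10 was at 11.5 and 10.7 FPKM with DMSO and at 7.98 and 10.1 FPKM with etoposide, the lower values being those of etoposide (−0.30, SE 0.13, adjusted p = 0.435). All 3 estimates were below 0, those of PSMB8 and PSMB9 at low levels. PSMB8 was at 0.305 and 0.310 FPKM with DMSO and at 0.412 and 0.0973 FPKM with etoposide, so its groups overlapped. PSMB9 was at 0.167 and 0.0914 FPKM with DMSO and at 0.0799 and 0.0787 FPKM with etoposide. Epithelial markers are given for the identity of the cells: 2 of 9 had estimates above 0 and 7 below, and their summed level was 2986 and 2646 FPKM with DMSO and 2065 and 2133 FPKM with etoposide. The largest parts of that sum were KRT8 and KRT18, with log2 fold changes of −0.54 and −0.51. PAX8, KRT7, MSLN and MUC16 had −0.22, −0.27, −0.30 and −0.55. EPCAM, CDH1 and WT1 had 0.070, 0.0029 and −0.052. The part of these markers in the values of the proteasome genes was not tested.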

How the data were processed

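RNA of 4 libraries (2 DMSO, 2 etoposide) was read as pairs of 100 bases from a stranded mRNA kit. By the study's methods and processing notes, the authors aligned to GRCh38 with HISAT2 and quantified Ensembl transcripts with StringTie 2.1.7; the files' recorded command holds no strand option. The deposited FPKM and TPM, and the coverage per base that the authors also deposited, are given for 236853 transcripts. The study's DESeq2 counts were not used here. FPKM were summed per gene. Genes with a mean of at least 0.1 FPKM (22185) entered a fit of log2(FPKM + 0.1) with limma 3.58.1 (R 4.3.3), etoposide against DMSO, with a variance trend, robust moderation and Benjamini-Hochberg adjustment over all of them. FPKM holds no counts, so no counting interval was made. P-values rest on the spread between the labelled biological replicates, moderated by the spread that limma shares among genes.

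Members and lists were chosen with earlier results of these data known. Values are given in full for the 2 members of each layer with the smallest p-values, for PSMB5, PSMB6 and PSMB7, and, in each list, for the gene with the smallest p-value and NFE2L1. A gene of the ubiquitin list is not reported here and was left out of its counts. Transcript lengths are means weighted by FPKM, transcript types and GC content came from GENCODE 44 (99.9% of genes), and promoter windows from RefSeq (GRCh38.p14). Fragments were estimated as FPKM times transcript length in kilobases. The 15 alternatives were 2 pseudocounts, 2 filters, TPM, median ratio scaling, no trend, a loess correction for length and GC (span 0.3), the replicate number as a block, the highest transcript per gene, voom on fragments estimated from coverage, and leaving out each library. The labels do not say that equal replicate numbers share a culture, and the replicate differences of the 2 groups correlated at 0.013 across genes. The fit was tested on simulated data. Python 3.11.15, pandas 2.3.3 and matplotlib 3.10.9 were used for tables and figures.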

Additional observations from a re-analysis of the deposited data

How the results depend on the processing

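Pseudocounts of 1 and 0.01, either filter, no trend and the replicate block left 0 proteasome genes called. The filters, the trend and the block cannot move an estimate. Only the pseudocounts could have turned a sign, and they turned none. With the replicate block 0 genes were called in all; the labels do not say what equal replicate numbers share. The other alternatives on 4 libraries also called 0 members, with a lowest adjusted p of 0.284, and 12 of 38 members had the same sign throughout. Counting single libraries out, 8 did. The causes were not tested.

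Genes called in all were 0 in the main test, 6 with the length and GC correction, 2 with the highest transcript and 1 with voom. Members above 0 numbered 10 with the correction, 26 with TPM and 9 with median ratio scaling. The median of all genes was −0.0042 with the correction, 0.10 with TPM and 0.0027 with median ratio scaling. With the correction the medians were −0.072 (ATPases), 0.0066 (base non-ATPases), −0.027 (chaperones) and −0.024 (activators), and signs turned for PSMA1 (−0.021), PSMB2 (−0.11), PSMC2 (−0.13), PSMC3 (0.041), PSMD1 (−0.039), PSMD3 (0.0087), PSMD4 (0.0066), PSMD10 (−0.027), PSMD11 (−0.0058), PSMD12 (−0.044), PSMD14 (−0.042) and PSME4 (−0.049). With the highest transcript alone the medians were −0.069 (ATPases), −0.12 (base non-ATPases) and 0.12 (activators), and signs turned for PSMA1 (−0.13), PSMB3 (−0.032), PSMB4 (0.0046), PSMC2 (−0.88), PSMC6 (−0.018), PSMD1 (−2.44), PSMD8 (0.21), PSMD11 (−0.040), PSMD13 (0.40), PSME1 (0.080) and PSME2 (−0.039). With voom the base non-ATPases had a median of 0.030, and PSMA4 (0.0045) and PSMB3 (−0.00088) turned.

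With TPM the medians were 0.047 (all members), 0.0017 (alpha ring), −0.00082 (beta ring), 0.063 (ATPases), 0.13 (base non-ATPases), 0.035 (lid), 0.094 (chaperones) and 0.11 (activators), while the median of all genes went from 0.036 to 0.10. Signs turned for PSMA3 (0.046), PSMA5 (0.0017), PSMB5 (0.0094), PSMC1 (0.065), PSMC3 (0.061), PSMD3 (0.030), PSMD4 (0.048), PSMD6 (0.015), PSMD7 (0.013), PSMD13 (0.039) and NFE2L1 (0.063). With median ratio scaling the medians were 0.021 (base non-ATPases), −0.010 (chaperones) and 0.0056 (activators), and signs turned for PSMA1 (−0.022), PSMB2 (−0.013), PSMB3 (−0.027), PSMC2 (−0.037), PSMD10 (−0.010), PSMD14 (−0.031) and PSME2 (−0.015).

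Leaving out 1 library leaves a lone sample in its group, taken to vary like the others. DMSO replicate 2 decided the number of calls: without it 1934 genes were called, and of the members PSMA2, PSMD8, PSMD9 and PSME4, against 5 genes without DMSO replicate 1, 98 without etoposide replicate 1, 102 without etoposide replicate 2, and 0 members in each of these. Signs turned for 13 members without DMSO replicate 1 and for 6 without DMSO replicate 2. Members above 0 ranged from 10 (without DMSO replicate 2) to 25 (without DMSO replicate 1). Medians ranged from −0.083 to 0.036 for all members, −0.14 to 0.019 for the alpha ring, −0.14 to 0.0017 for the beta ring, −0.065 to 0.051 for the ATPases, 0.041 to 0.062 for the base non-ATPases, −0.078 to 0.041 for the lid, −0.0063 to 0.059 for the chaperones and −0.022 to 0.061 for the activators. Estimates that turned in sign ranged from −0.048 to 0.078 for PSMA1, −0.53 to 0.064 for PSMA2, −0.061 to 0.019 for PSMA3, −0.25 to 0.079 for PSMA4, −0.14 to 0.014 for PSMA5, −0.082 to 0.21 for PSMA6, −0.16 to 0.016 for PSMA7, −0.0056 to 0.053 for PSMB2, −0.080 to 0.099 for PSMB3, −0.14 to 0.029 for PSMB5, −0.23 to 0.0017 for PSMB6, −0.062 to 0.057 for PSMC1, −0.046 to 0.047 for PSMC2, −0.068 to 0.056 for PSMC3, −0.060 to 0.29 for PSMC6, −0.12 to 0.047 for PSMD3, −0.092 to 0.053 for PSMD4, −0.0063 to 0.059 for PSMD10, −0.10 to 0.047 for PSMD13, −0.023 to 0.035 for PSMD14, −0.13 to 0.18 for PSME2, −0.021 to 0.33 for PSME4 and −0.032 to 0.025 for NFE2L1.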
